A study of Mus musculus with 5 samples.

Results

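Serum amyloid A3 (SAA3) is a secreted acute-phase protein of the mouse, and several cell-surface receptors have been proposed to sense proteins of its family. The 9 genes described here code for such receptors and for the proteins they need: Tlr2, Tlr4, Cd14, Ly96, Myd88, Fpr1, Fpr2, Scarb1 and P2rx7. They were listed by name, with earlier results of these data known, and all 9 are among the 26189 genes of the deposited single-cell tables. Their levels were read in cells of the aortic arch in which mitochondrial genes made up at most 25% of molecules.

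The series holds 5 mouse samples, of which the 4 samples of bone-marrow-derived macrophages were not analysed here. The aortic sample combines cells of female C57BL/6J wild-type mice with cells of female mice carrying the allele C57BL/6N-Saa3tm1.1(KOMP)Vlcg/MbpMmucd, called Saa3-/- in the design text. All mice were 12 weeks old, had 1 intraperitoneal injection of an adeno-associated viral vector and then ate a Western diet for 18 weeks, which is a regimen used to bring on atherosclerosis. Live cells positive for CD45, a surface protein of blood-derived cells, were sorted, and each genotype received its own sample tag, an antibody-bound barcode. The 2 genotypes are described as littermates although the strain names differ, and the number of mice behind each tag is not given in the sources used here. Each genotype is thus a single pool of cells: there is no replicate, no test between pools was possible, and the intervals below are exact 95% intervals that cover counting error only. A strain difference, a capture difference and the Saa3 allele cannot be told apart.

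Toll-like receptor 2 (Tlr2) and Toll-like receptor 4 (Tlr4) are membrane receptors of innate immune cells. Cd14 hands lipid-bearing ligands to them, MD-2 (Ly96) is the ligand-binding partner of Tlr4, and the adaptor Myd88 carries the signal of either receptor towards NF-kB. Fpr1 and Fpr2 are G-protein-coupled formyl peptide receptors that guide phagocytes, and Fpr2 has been described as a chemotactic receptor for serum amyloid A. Scarb1 codes for SR-BI, a lipoprotein receptor that exchanges cholesterol with high-density lipoprotein, and P2rx7 for an ATP-gated channel upstream of the NLRP3 inflammasome.

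The targeted gene was examined first. Summed over all kept cells, Saa3 numbered 1079 molecules under the wild-type label and 1268 under the Saa3-/- label, so the whole-pool count goes against the label, and the pools are named by their labels throughout. A single fibroblast-like cell held 799 of the 812 Saa3 molecules of fibroblast-like cells in the pool labelled Saa3-/-. The other named types with at least 20 cells per pool held from 1 (monocyte-like) to 35 (macrophage-like) there. These counts do not add up to 1268, so further Saa3 molecules of that pool lay in smaller or unnamed clusters. Their Saa3 counts are not given here. In macrophage-like cells the Saa3 counts were 787 and 35 in the pools labelled wild-type and Saa3-/-. Most of the 787 lay in 8 cells with at least 10 Saa3 molecules each. The other macrophage-like cells of that pool held 32 molecules (cells with Fpr1 or Fpr2) and 44 (cells with neither). Which part of the gene the allele removes is not given in the sources used here. After the mitochondrial filter 833 and 823 cells remained, with medians of 6415 and 4698 molecules per cell, and the tables shared 0 cell barcodes. Ptprc, the gene of CD45, was found in 84.3% and 84.4% of the kept cells. Cells were clustered without the 9 genes and without Saa3, and a name ending in -like rests on a list of marker genes. All 8 macrophage markers were found in macrophage-like cells of both pools.

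Fpr1 and Fpr2 are neighbours on mouse chromosome 17 (GRCm38), Fpr1 at 17876471 to 17883940 on the minus strand and Fpr2 at 17887824 to 17893952 on the plus strand. The annotated starts point away from each other and lie 3884 bases apart with 0 other genes between them. Their promoters are shown because these were the 2 members with the largest difference between the pools in macrophage-like cells. RefSeq promoter sequences of 300 bases (GRCm38.p6, 250 before and 50 from the start) were at hand for 5 of the 9 members, and each is printed 5′ to 3′ on the gene's own strand, from chr17:17883890-17884189 for Fpr1 and chr17:17887574-17887873 for Fpr2. Capitals mark the 6 letters of the PU.1 core motif (GAGGAA, here on the opposite strand). PU.1 is a transcription factor of myeloid cells.
Fpr1: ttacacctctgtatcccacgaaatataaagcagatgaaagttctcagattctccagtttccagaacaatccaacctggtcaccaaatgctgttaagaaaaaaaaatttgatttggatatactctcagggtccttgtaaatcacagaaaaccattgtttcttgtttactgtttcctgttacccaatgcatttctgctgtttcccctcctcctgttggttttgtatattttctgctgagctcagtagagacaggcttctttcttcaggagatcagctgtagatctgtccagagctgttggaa
Fpr2: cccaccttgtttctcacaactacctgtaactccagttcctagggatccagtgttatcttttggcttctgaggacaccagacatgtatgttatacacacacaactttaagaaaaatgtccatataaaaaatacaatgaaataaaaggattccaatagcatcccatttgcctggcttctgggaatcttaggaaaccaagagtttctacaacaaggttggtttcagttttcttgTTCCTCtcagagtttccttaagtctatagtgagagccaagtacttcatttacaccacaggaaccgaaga
The Fpr2 promoter held this motif once, starting at position -19 relative to the start, and the Fpr1 window held none. Of 32851 RefSeq promoters of the same length, 28.3% held GAGGAA on either strand. A C/EBP motif (TTGCNNAA) was in 10.8% of promoters and an NF-kB motif (GGGNNNNNCC) in 50.8%, and neither was in the windows of Fpr1 or Fpr2.

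Levels were ranked over the 8 cell types that had 20 or more cells under both labels, as CPM (molecules of the gene per 1000000 molecules of the same cells). A macrophage-, monocyte- or conventional-dendritic-cell-like type led for 8 of the 9 members in both pools. Tlr4 was the exception, with fibroblast-like cells first in the pool labelled wild-type. Macrophage-like cells numbered 217 in the pool labelled wild-type and 159 in the pool labelled Saa3-/-, with medians of 9470 and 6732 molecules per cell. Lymphocytes were used to gauge free RNA: in T-cell-like cells (179 and 194 cells, medians of 4189 and 3910.5 molecules) Cd14 was found in 16.2% and 12.9% of cells and Tlr2 in 6.15% and 5.15%. Of these cells 71 and 73 belong to cluster 3, led by Ccl5, Ms4a4b and Nkg7, whose 10 leading genes hold no T-cell marker and the natural-killer-cell marker Eomes.

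**Figure D1:**
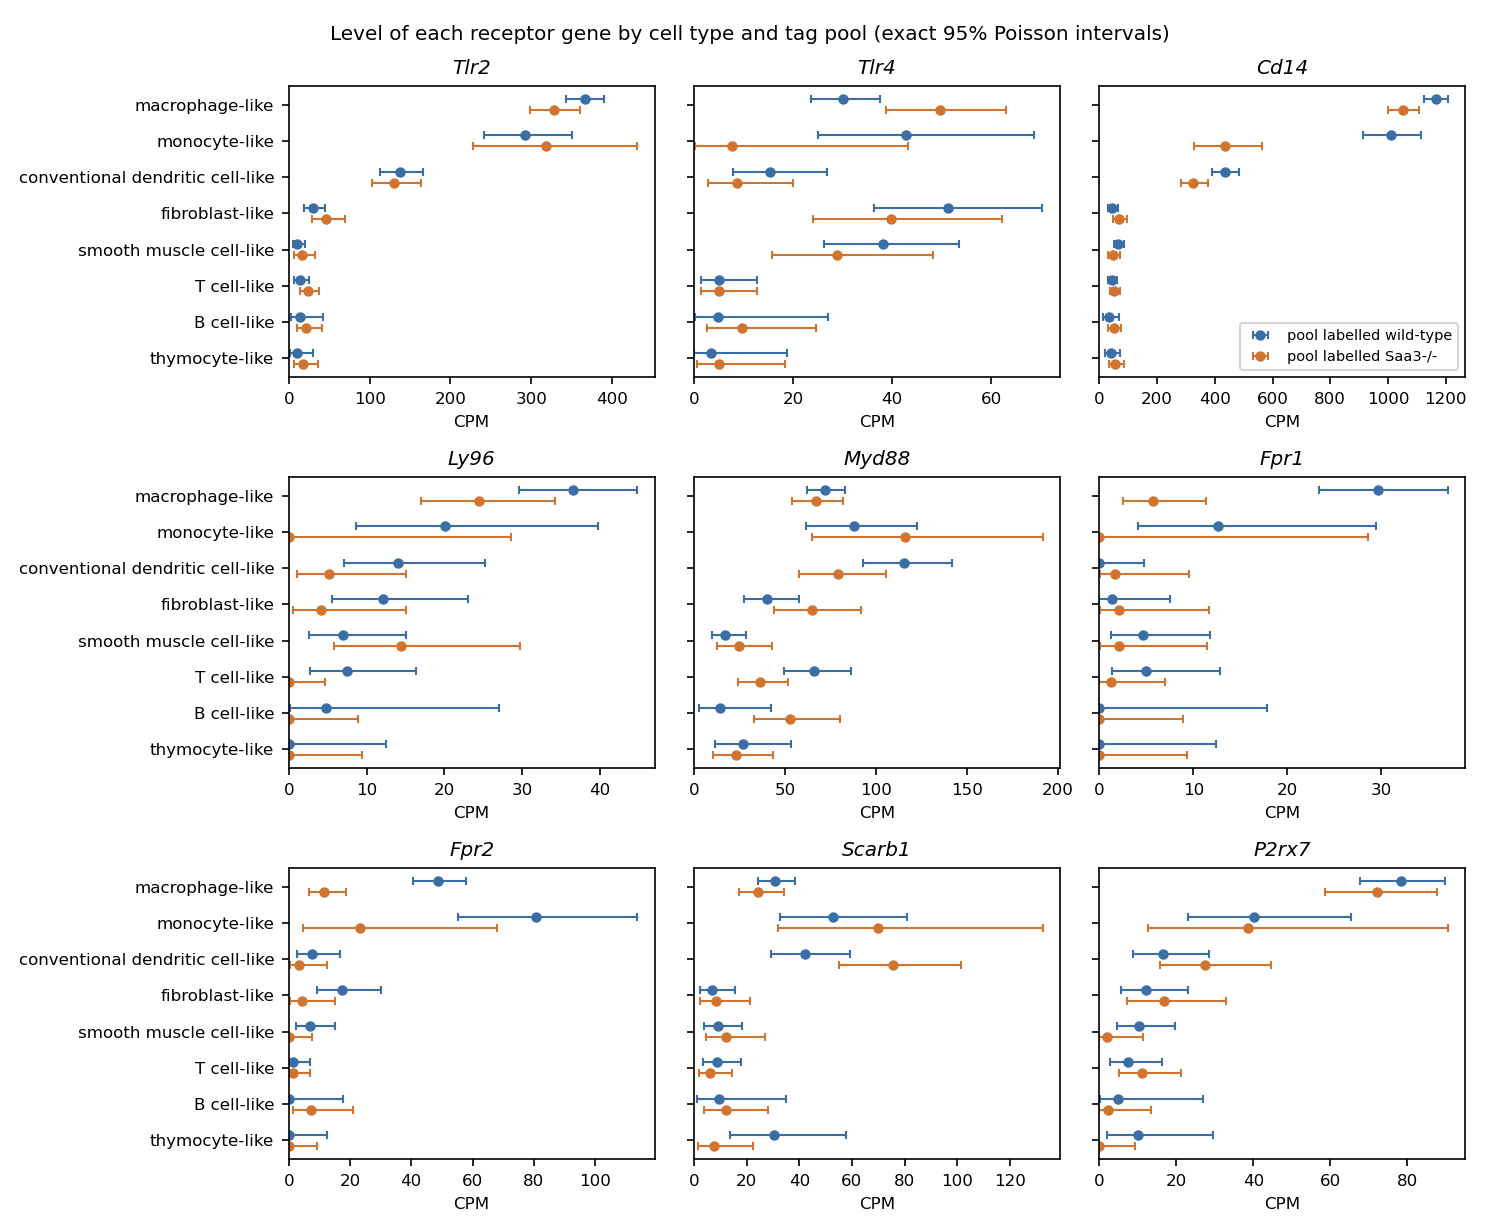
Level of each of the 9 genes (horizontal axis, CPM, linear, a scale of its own per gene) in 8 cell types (vertical axis) and the 2 tag pools (colours); points are pool values and bars exact 95% Poisson intervals. Tlr2, Cd14, P2rx7 and Scarb1 are highest in myeloid types in both pools, Tlr4 reaches similar levels in fibroblast- and smooth-muscle-cell-like cells, and Fpr1 and Fpr2 of macrophage-like cells differ between the pools.

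Tlr2 had the same order of leading types in both pools. In the pool labelled wild-type its level was 366 CPM (95% interval 343 to 390) in macrophage-like cells, 292 (241 to 350) in monocyte-like cells and 137 (112 to 166) in conventional-dendritic-cell-like cells. The pool labelled Saa3-/- gave 328 (299 to 360), 318 (228 to 431) and 131 (103 to 163). The intervals of macrophage- and monocyte-like cells overlapped in each pool, whereas those of conventional-dendritic-cell-like cells lay below both. All other types lay at 46.0 CPM or below. At least 1 molecule of Tlr2 was found in 76.0% of macrophage-like cells of the pool labelled wild-type and in 64.2% of the other pool. Thinned to 2000 molecules per cell, which left out 5 and 1 cells, those shares were 43.9% and 37.3%. Tlr2 lies on chromosome 3, at 83836272 to 83841767 on the minus strand.

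Cd14 was likewise a gene of macrophage- and monocyte-like cells. Macrophage-like cells held 1164 CPM (1123 to 1207) and 1052 (999 to 1107) in the pools labelled wild-type and Saa3-/-. Monocyte-like cells held 1010 (913 to 1114) against 434 (328 to 564), from 42 and 20 cells. Because these are fewer than 30 cells in a pool, the pools were not compared as a ratio in that type. Conventional-dendritic-cell-like cells came next at 435 (390 to 484) and 326 (282 to 376). Their interval lay below that of monocyte-like cells in the first pool and overlapped it in the second. Fibroblast- and smooth-muscle-cell-like cells, at 45.8 to 69.1 CPM, had intervals that overlapped those of T-cell-like cells (43.7 and 52.4). Cd14 is annotated on chromosome 18, at 36725067 to 36726798 on the minus strand.

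Tlr4 had another distribution. In the pool labelled wild-type its level was 51.2 CPM (36.3 to 70.3) in fibroblast-like cells, 42.8 (24.9 to 68.5) in monocyte-like cells, 38.1 (26.2 to 53.5) in smooth-muscle-cell-like cells and 30.0 (23.7 to 37.5) in macrophage-like cells. In the pool labelled Saa3-/- macrophage-like cells were first at 49.7 (38.7 to 62.9), followed by fibroblast-like cells at 39.8 (23.9 to 62.1) and smooth-muscle-cell-like cells at 28.8 (15.7 to 48.3). The intervals of neighbours in either order overlapped. T-cell-like cells gave 4.99 CPM in each pool, and both stromal levels of Tlr4 lay above that beyond counting error. B-cell-like cells, at 4.84 (0.12 to 27.0) and 9.61 (2.62 to 24.6), were less precise, and their intervals overlapped those of smooth-muscle-cell-like cells in both pools and of fibroblast-like cells in the pool labelled Saa3-/-. For every 100 Cd14 molecules, fibroblast-like cells had 112 and 57.6 Tlr4 molecules and macrophage-like cells 2.57 and 4.72. Ptprc was found in 55.9% and 39.2% of fibroblast-like cells and in 36.2% and 37.9% of smooth-muscle-cell-like cells, although the sort was for CD45. Tlr4 is on chromosome 4, at 66827584 to 66930284 on the plus strand.

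Ly96, the partner that Tlr4 needs to bind lipopolysaccharide, was sparse. Macrophage-like cells were first in both pools, with 94 molecules (36.6 CPM, 29.6 to 44.8) in the pool labelled wild-type and 34 molecules (24.5, 17.0 to 34.2) in the other. Monocyte-like cells had 8 and 0 molecules, fibroblast-like cells 9 and 2, and smooth-muscle-cell-like cells 6 and 7. The last came second in the pool labelled Saa3-/- at 14.4 CPM (5.79 to 29.7), against 6.93 (2.54 to 15.1) in the other pool. With 20 cells, the 0 molecules of monocyte-like cells still allow a level of up to 28.6 CPM. Ly96 lies on chromosome 1, at 16688051 to 16709611 on the plus strand.

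Myd88 was found in lymphoid as well as myeloid types. Conventional-dendritic-cell-like cells were first in the pool labelled wild-type at 115 CPM (92.8 to 142) and monocyte-like cells first in the pool labelled Saa3-/- at 116 (65.1 to 192). Macrophage-like cells stood behind those types in both pools, at 72.0 (62.0 to 83.2) and 67.0 (54.1 to 82.0), and the intervals of neighbours in either order overlapped. T-cell-like cells held 66.2 and 36.2 CPM, and B-cell-like cells 14.5 and 52.9. Myd88 (chromosome 9, 119335934 to 119341411, minus strand) overlaps exons of Acaa1a, and 7.42% of its 50-base transcript stretches also occur in Acaa1a transcripts. The counting rule for such reads is not stated in the file headers, so part of these molecules is uncertain.

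Whether a cell held a receptor together with its partners was counted next. In macrophage-like cells, Tlr2 and Myd88 were found together in 39.2% of cells (32.6 to 46.0) of the pool labelled wild-type and in 28.9% (22.0 to 36.6) of the pool labelled Saa3-/-. In T-cell-like cells the same pair was found in 1.68% and 2.06%. Thinned to 2000 molecules per cell, the macrophage-like shares were 3.30% and 6.33%, so the order of the pools was not kept and no difference is read from the shares as counted.

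The full Tlr4 set, Tlr4 with Ly96 and Myd88, was found in 17 of 217 macrophage-like cells (7.83%, 4.63 to 12.2) and in 7 of 159 (4.40%, 1.79 to 8.86). It was found in 3 of 68 and 1 of 51 fibroblast-like cells, in 2 of 105 and 0 of 66 smooth-muscle-cell-like cells, and in 0 of 179 and 0 of 194 T-cell-like cells. Among cells with Tlr4, Cd14 was also found in 47 of 48 and 44 of 46 macrophage-like cells, against 12 of 23 and 6 of 13 fibroblast-like cells and 8 of 23 and 3 of 12 smooth-muscle-cell-like cells. Ly96 was also found in 26 of 48 and 14 of 46 such macrophage-like cells, in 5 of 23 and 1 of 13 fibroblast-like cells and in 3 of 23 and 2 of 12 smooth-muscle-cell-like cells. The Tlr4-bearing macrophage-like cells had medians of 14269.5 and 10360 molecules, above the medians of all macrophage-like cells. At 2000 molecules per cell the full set was found in 0 of 212 and 0 of 158 macrophage-like cells, which allows at that depth a share with the set detected of up to 1.42% and 1.90% (3 cells of the total). This does not limit the share of cells that express the set.

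**Figure D2:**
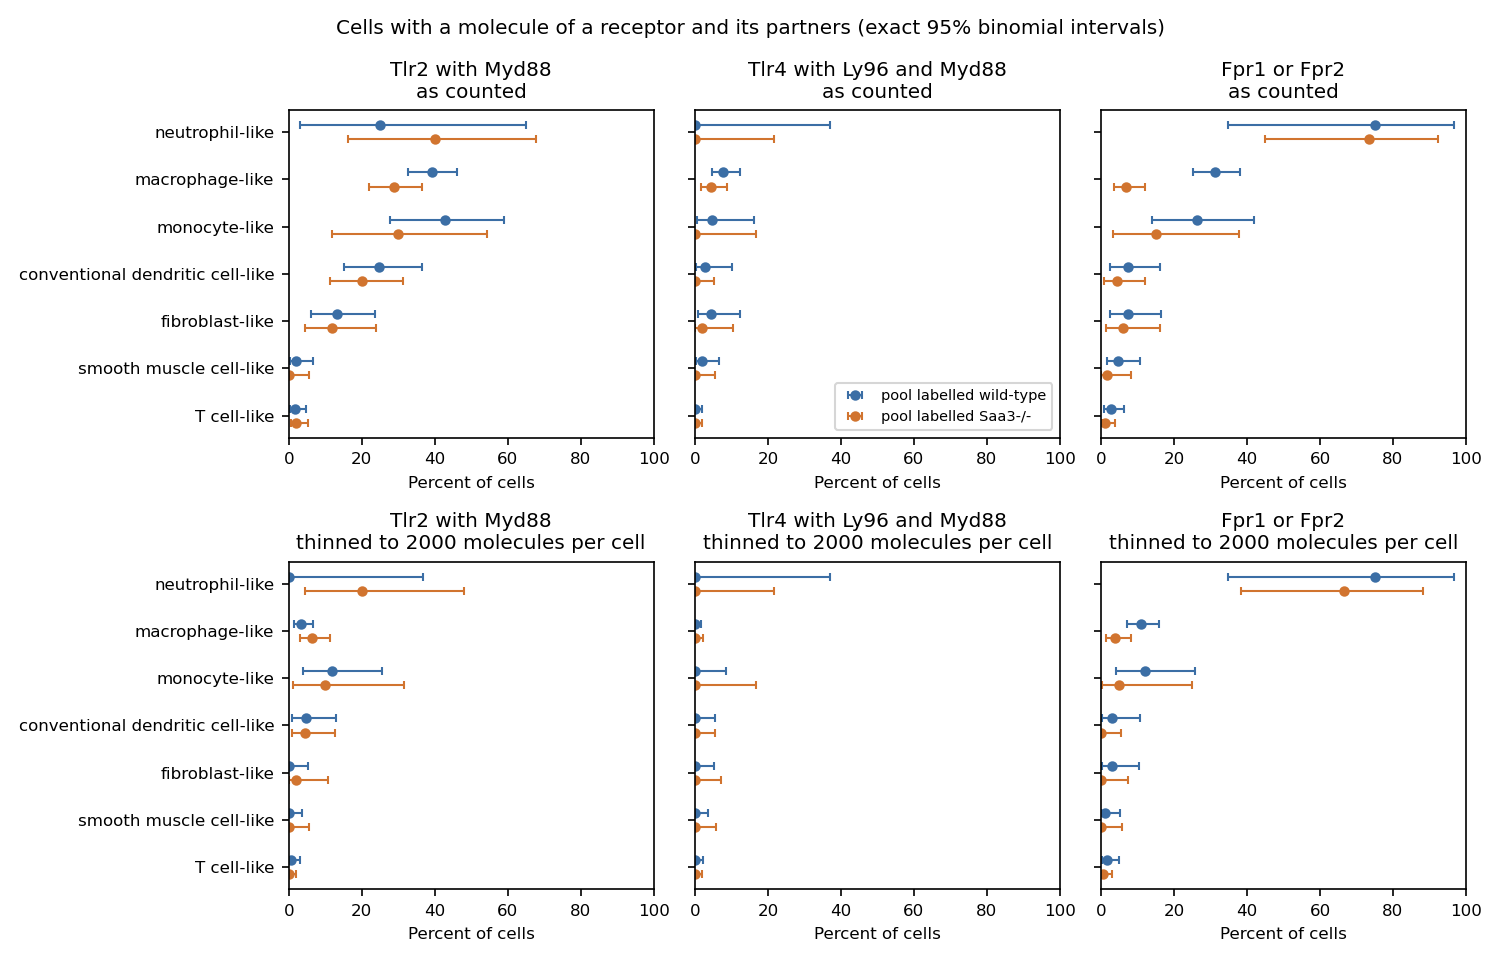
Percent of cells (horizontal axis) of 7 types (vertical axis) with at least 1 molecule of each named gene, in the 2 tag pools (colours), as counted (upper row) and after thinning to 2000 molecules per cell (lower row); bars are exact 95% binomial intervals. Shares of macrophage-like cells with Fpr1 or Fpr2 are 31.3% and 6.92% as counted and 10.8% and 3.80% after thinning, when their intervals overlap, and shares of macrophage-like cells with the full Tlr4 set are 0 after thinning.

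Among the 9 members, the formyl peptide receptors showed the largest difference between the pools in macrophage-like cells. In macrophage-like cells Fpr1 had 76 molecules (29.6 CPM, 23.3 to 37.0) in the pool labelled wild-type and 8 molecules (5.76 CPM, 2.49 to 11.4) in the pool labelled Saa3-/-. The difference was -2.28 on the log2 scale (interval -3.62 to -1.31), a level 4.87 times lower under the Saa3-/- label. Fpr2 had 125 molecules (48.7 CPM, 40.5 to 58.0) and 16 molecules (11.5 CPM, 6.59 to 18.7), a difference of -2.04 (-2.93 to -1.32). A ratio counted as past the fold when its size was at least 1 on the log2 scale and the gene had at least 50 molecules over both pools. Of the 7824 genes measured in this way in macrophage-like cells, 1.9% were past it in either direction and 1.07% were lower in the pool labelled Saa3-/-. Fpr1 and Fpr2 were the 2 of 9 members past it, in places 10 and 17 from the lowest ratio of all 7824 genes.

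Among the other 7 members in macrophage-like cells, Tlr4 was higher in the pool labelled Saa3-/- by 0.73 (0.24 to 1.22). Ly96 differed by -0.57 (-1.19 to 0.00), Scarb1 by -0.32 (-0.95 to 0.27), Tlr2 by -0.16 (-0.32 to 0.01), Cd14 by -0.15 (-0.24 to -0.06), P2rx7 by -0.12 (-0.48 to 0.23) and Myd88 by -0.10 (-0.48 to 0.26). None of these 7 was past the fold. The median of the 9 members was -0.16 and that of all genes 0.03, and 8 of the 9 ratios were below 0. For Tlr2 and Cd14 the sign depended on which cells were counted as macrophage-like: at a Leiden resolution of 0.5 they were 0.27 and 0.22.

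**Figure D3:**
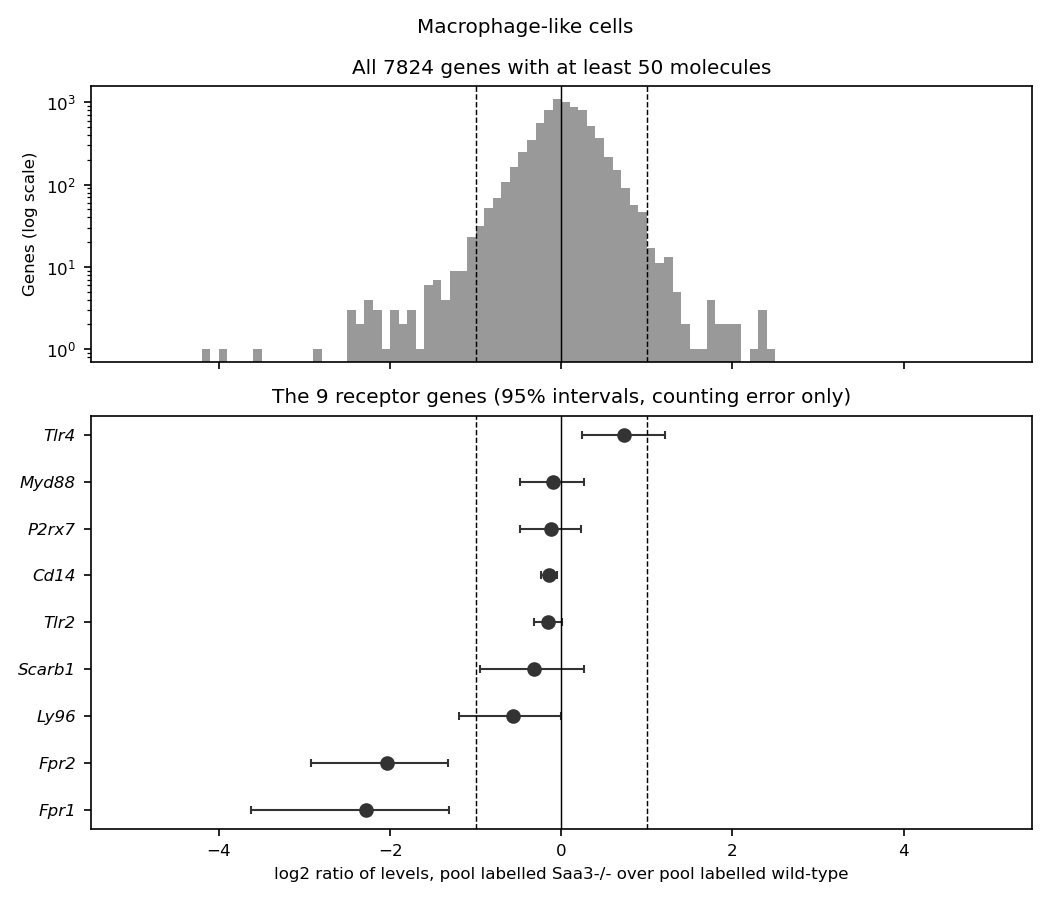
Log2 ratio of levels in macrophage-like cells, pool labelled Saa3-/- over pool labelled wild-type (horizontal axis), for all 7824 genes with at least 50 molecules (upper panel, number of genes on a log scale) and for the 9 receptor genes (lower panel, bars are 95% intervals from counting error). Dashed lines mark a ratio of 1 in size; Fpr1 and Fpr2 lie beyond it at -2.28 and -2.04, and the intervals of the other 7 genes reach inside it.

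The lower Fpr levels were seen in more than 1 kind of macrophage-like cell. Cluster 0 (led by Adgre1 and Lyz1, 106 and 68 cells) held 45 and 4 molecules of Fpr1 and 83 and 11 of Fpr2. Cluster 5 (led by Lyve1, Cd163 and Folr2, genes of resident macrophages, 73 and 39 cells) held 30 and 1 molecules of Fpr1 and 39 and 5 of Fpr2. In cluster 8 (led by Gpnmb, Mmp12 and Trem2, genes of lipid-laden macrophages, 38 and 52 cells) Fpr1 had 1 and 3 molecules and Fpr2 3 and 0, so these cells were nearly without either receptor in both pools. Cluster 8 made up 17.5% of the macrophage-like cells under the wild-type label and 32.7% under the Saa3-/- label. Without it, a check added after seeing the data, the ratios were -2.39 for Fpr1 and -1.51 for Fpr2.

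Within cluster 0, 2 of 6 members with enough molecules were past the fold, where 1.64% of 4946 genes were lower past it. They were Fpr2 (-1.55, interval -2.66 to -0.69) and Scarb1 (-1.08, interval -2.45 to -0.05, from 44 and 8 molecules). Fpr1 had just under 50 molecules there. In cluster 5 none of 4 members was past it, where 2.36% of 4074 genes were lower, and Fpr1 and Fpr2 had too few molecules there. Cluster 8 had 1 of 5 members lower, against 2.55% of 3838 genes: Tlr2, at 351 CPM (301 to 408) and 168 (137 to 204). Cd14 in cluster 8 was 1121 (1029 to 1217) against 577 (518 to 642), a difference of -0.96. In cluster 0 both genes lay the other way, Tlr2 at 397 (361 to 434) against 533 (469 to 603) and Cd14 at 1228 (1165 to 1293) against 1546 (1436 to 1662).

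Tlr4 was also uneven over the clusters. In cluster 0 it had 23 and 25 molecules, 19.6 CPM (12.4 to 29.4) under the wild-type label and 52.9 (34.2 to 78.1) under the Saa3-/- label, too few molecules for a ratio by the rule used here. In cluster 8 its level was 34.1 (19.9 to 54.7) and 57.0 (39.5 to 79.7), with overlapping intervals. In cluster 5 it lay the other way at 41.2 and 31.3 CPM, from 37 and 10 molecules, again with overlapping intervals.

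**Figure D4:**
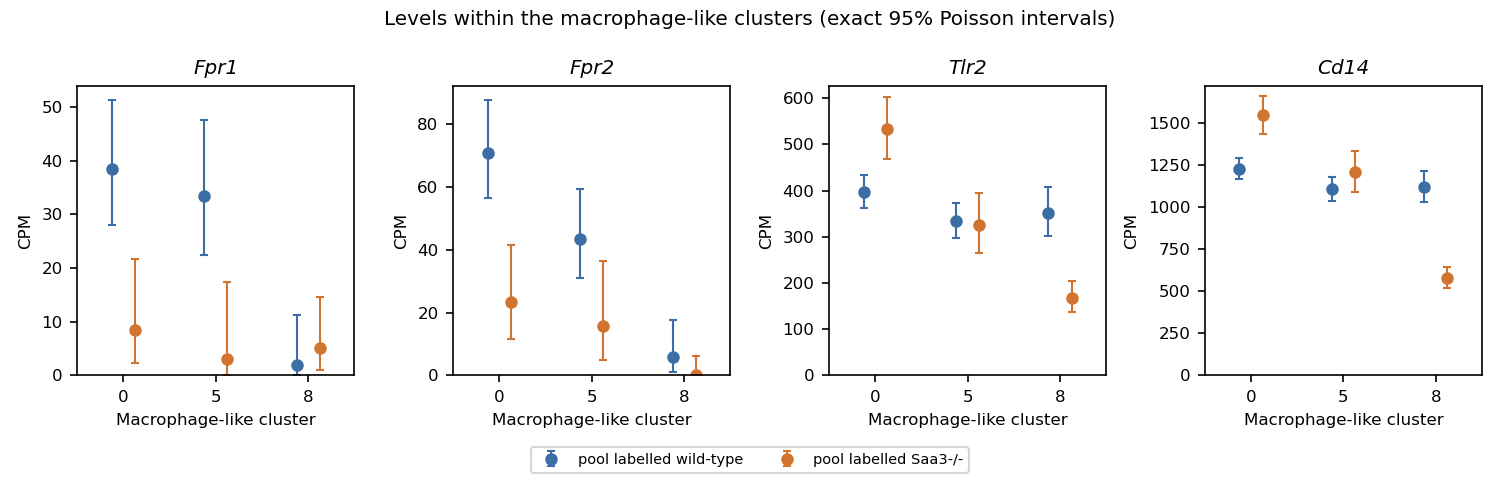
Level (vertical axis, CPM, linear from 0, a scale of its own per gene) of Fpr1, Fpr2, Tlr2 and Cd14 in the 3 macrophage-like clusters (horizontal axis) and the 2 tag pools (colours), with exact 95% Poisson intervals. Fpr1 and Fpr2 are lower under the Saa3-/- label in clusters 0 and 5 and near 0 in cluster 8, while Tlr2 and Cd14 are higher under that label in cluster 0 and lower in cluster 8.

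The Fpr molecules were spread over many cells in the pool labelled wild-type. There 35 cells held the 76 Fpr1 molecules, with 11 in the highest cell, and 53 cells held the 125 Fpr2 molecules, with 16 in the highest. The other pool had 6 cells with Fpr1 and 9 with Fpr2. The 5 highest cells held 39.5% of the Fpr1 molecules under the wild-type label and 87.5% under the Saa3-/- label. Fpr1 or Fpr2 was found in 31.3% (25.2 to 38.0) and 6.92% (3.50 to 12.0) of macrophage-like cells as counted, and in 10.8% (7.00 to 15.8) and 3.80% (1.41 to 8.08) at 2000 molecules per cell, intervals that overlap. T-cell-like cells had 2.79% and 1.03% as counted.

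Neutrophil-like cells, the classical carriers of formyl peptide receptors, were few: 8 and 15 cells in the pools labelled wild-type and Saa3-/-. They held 20 and 18 molecules of Fpr1, 10 and 34 of Fpr2, 9 and 30 of Tlr2 and 37 and 75 of Cd14, and 6 of 8 and 11 of 15 cells had Fpr1 or Fpr2. Monocyte-like cells held 5 and 0 molecules of Fpr1 and 32 and 3 of Fpr2. Among the 8 ranked types, which leave out neutrophil-like cells as too few, they were first for Fpr2 in both pools. Their levels were 80.6 CPM (55.1 to 114) and 23.3 (4.79 to 67.9). These intervals overlapped those of macrophage-like cells in each pool. Of the 7 neutrophil markers, 6 were found in macrophage-like cells and Ly6g was at 0, with summed levels of 139 and 161 CPM. All 6 monocyte markers were found, summing to 479 and 532 CPM. Under the Saa3-/- label the 7 markers summed to 760 CPM in the 11 macrophage-like cells with Fpr1 or Fpr2 and to 105 in the 148 cells with neither. S100a8 (220 against 13.4), S100a9 (355 against 18.9), Csf3r (169 against 55.9) and Cxcr2 (8.45 against 0.787) were higher there, Mmp9 was lower (8.45 against 12.6), and Retnlg (0 against 3.94) and Ly6g were at 0. At least 1 molecule of S100a8 or S100a9 was found in only 4 of those 11 cells, and in 33 of the 148. In the pool labelled wild-type the sums were 170 in the 68 cells with and 117 in the 149 cells without a formyl peptide receptor. Csf3r (90.3 against 59.1) and Mmp9 (54.6 against 29.9) were higher there, S100a8 was 10.4 against 8.63, S100a9 10.4 against 11.9 and Retnlg 4.71 against 3.32, while Cxcr2 (0 against 3.98) and Ly6g were at 0. S100a8 or S100a9 was found in 16 of the 68 and 28 of the 149 cells. The part of neutrophil RNA in these counts was not tested.

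Saa3 and the formyl peptide receptors were compared within the macrophage-like cells of the pool labelled wild-type. The 68 cells with Fpr1 or Fpr2 had Saa3 at 666 CPM (618 to 717), and the 149 cells with neither had 52.4 (41.5 to 65.4). Of the 8 cells with at least 10 Saa3 molecules, 6 were among the 68, and 1 of them alone had 244. Over the remaining cells Saa3 was 35.7 CPM (24.5 to 50.5) with and 29.7 (21.5 to 39.8) without a formyl peptide receptor. The cells with a receptor were also deeper, with a median of 12654 against 8007 molecules. Under the Saa3-/- label 0 macrophage-like cells had at least 10 Saa3 molecules. There Saa3 was 33.8 CPM (9.21 to 86.5) with and 24.4 (16.6 to 34.6) without a formyl peptide receptor. Cxcl13, a chemokine gene among the leading genes of cluster 5, was 1106 CPM in the 68 cells and 447 in the 149. Under the Saa3-/- label it was 101 CPM in the 11 cells with a formyl peptide receptor and 39.4 in the 148 without.

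Fpr2 counts carry a limit of their own. Of its 1295 stretches of 50 bases, 31.5% occur in transcripts of another gene, 28.4% in Gm5966 and 6.33% in Fpr3, a related formyl peptide receptor whose annotated exons overlap those of Fpr2. Fpr3 had 0 and 1 molecules in macrophage-like cells and 4 and 3 over all cells. Fpr1 shared 1 of 1275 stretches.

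Scarb1 was highest in monocyte- and conventional-dendritic-cell-like cells. In the pool labelled wild-type monocyte-like cells had 52.9 CPM (32.7 to 80.8), conventional-dendritic-cell-like cells 42.3 (29.1 to 59.4) and macrophage-like cells 30.8 (24.3 to 38.3). In the pool labelled Saa3-/- the values were 69.8 (31.9 to 132), 75.6 (54.9 to 101) and 24.5 (17.0 to 34.2). In that pool the interval of conventional-dendritic-cell-like cells lay above that of macrophage-like cells, and in the other the intervals overlapped. Conventional-dendritic-cell-like cells thus lay 0.83 higher (0.15 to 1.53) under the Saa3-/- label. None of the 4 members with enough molecules was lower past the fold in that type, where 2.24% of 4511 genes were. Cluster 11 (led by Clec9a and Xcr1) held 36 of 69 of these cells under the wild-type label and 21 of 70 under the Saa3-/- label, and cluster 9 (led by Hbb-bs and Cd209a) the others. Within cluster 11 Scarb1 was 49.6 CPM (31.8 to 73.8) and 114 (72.6 to 172), and within cluster 9 it was 30.4 (13.9 to 57.8) and 55.1 (34.1 to 84.3). Scarb1 lies on chromosome 5, at 125277087 to 125341094 on the minus strand.

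P2rx7 followed macrophage-like cells. These had 78.2 CPM (67.8 to 89.8) and 72.0 (58.6 to 87.6), followed by monocyte-like cells at 40.3 (23.0 to 65.4) and 38.8 (12.6 to 90.4). The intervals of macrophage- and monocyte-like cells lay apart in the pool labelled wild-type and overlapped in the other. It was found in 50.2% and 32.7% of macrophage-like cells as counted and in 11.8% and 15.8% at 2000 molecules per cell, so the share as counted moved with depth. P2rx7 is on chromosome 5 as well, at 122643911 to 122691432 on the plus strand.

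In fibroblast-like cells 3 members had enough molecules for a ratio: Tlr4 (-0.35, interval -1.24 to 0.47), Cd14 (0.59, -0.14 to 1.33) and Myd88 (0.68, -0.09 to 1.46). None was lower past the fold, against 1.77% of 4283 genes. Over whole pools, without regard to cell type, Fpr1 was 16.6 and 7.26 CPM and Fpr2 28.1 and 13.9, and Cd14 was 559 and 377. Scarb1 was 24.0 and 24.3, and Tlr4 29.1 and 25.2. Fewer cells of a type and less RNA per cell cannot be told apart in such whole-pool values, and macrophage-like cells made up 217 of 828 and 159 of 823 of the cells used.

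Genes that act with these receptors were read in macrophage-like cells from lists grouped by function and chosen with earlier results of these data known. Of all 7824 genes there, 1.9% were past the fold in either direction and 1.07% were lower past it. With so few genes per list, a count of 0 lies near that share and is not read as a result. Of the 6 other proposed receptors of serum amyloid A, 3 had enough molecules and 0 were past the fold: Msr1, a scavenger receptor for modified lipoproteins, was highest at 0.99 (160 and 317 CPM) and Cd36, a fatty acid and lipoprotein receptor, lowest at 0.05. The median was 0.14. The other 3 had too few molecules for a ratio: Marco had 39 and 1 (15.2 and 0.72 CPM), Ager 6 and 6 and Olr1 3 and 5. Of 10 other Toll-like receptors 4 had enough molecules and 0 were past it, from Tlr7 at -0.01 to Tlr13 at 0.73, both sensors of RNA in endosomes, with a median of 0.35. Co-receptors, chaperones and trafficking proteins gave 0 of 5, from Unc93b1 at -0.31 to Cnpy3 at 0.25.

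Adaptors and kinases after the receptor gave 0 of 10, with a median of 0.11, from Tab2 at -0.05 to Tirap at 0.50. Among 5 brakes on Toll-like receptor signalling 1 was lower past the fold, against 1.07% of all 7824 genes. This was Irak3, a kinase-like inhibitor of the Myd88 pathway, at -1.15 (75.9 and 33.8 CPM), while Tollip was highest at 0.40. The ligand and signalling genes of the formyl peptide receptors gave 0 of 3, from Gnai3 at -0.24 to Anxa1, the gene of the Fpr2 ligand annexin A1, at 0.56. Purinergic receptors other than P2rx7 gave 0 of 5, from P2ry12 at -0.25 to P2ry14 at 0.11. Genes of the inflammasome downstream of P2rx7 gave 0 of 8, from Gsdmd at -0.52 to Il18 at 0.38, with Nlrp3 at -0.09 and Il1b at 0.07. Of the serum amyloid A genes Saa3 alone had enough molecules (-3.58), and Saa1 and Saa4 had 0 molecules in macrophage-like cells of both pools. Most Saa3 molecules of macrophage-like cells under the wild-type label lay in the 8 cells with at least 10 each.

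Genes with the most similar pattern are given for 8 of the members, sought over 16 profiles (8 cell types in 2 pools) and 11961 genes, by Pearson correlation of log2(CPM + 1). The profiles share 2 libraries and differ in depth, so these values describe and are not tested. Cd14 was closest to Fcer1g (0.98), Cxcl2 and Cd68, and Tlr2 to Sdcbp (0.97), Cd68 and Ftl1-ps1, while Cd14 and Tlr2 correlated at 0.96 with each other. Tlr4 was closest to Vat1 (0.92), Anxa3 and Tnfsf12, and correlated with Cd14 at 0.42. Fpr1 was closest to Cd209g (0.88), Cxcl13 and Wwp1, and Fpr2 to Serpinb8 (0.92), Amdhd2 and Ly6i. P2rx7 was closest to Pde7b (0.91), Alox5 and Cndp2, Scarb1 to Actg1 (0.93), Gnb2 and Actb, and Ly96 to Vps29 (0.90), Hgf and Cope.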

How the data were processed

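The deposited tables, 1 per sample tag, hold whole-number counts of molecules per gene and cell. Per the file headers, the authors made them with the BD Rhapsody WTA Analysis Pipeline version 1.11.1 on GRCm38 with GENCODE mouse release 19, intronic reads included. How reads shared by genes were counted, and on which strand, is not given in the sources used here. The genotype of a tag was taken from the names of the deposited tables. The 9 members and the gene lists were chosen with earlier results of these data known.

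Cells with over 25% mitochondrial molecules (87 of 1743) were left out. The 2000 most variable genes, without the members and Saa3, gave 22 Leiden clusters at resolution 1 (Python 3.11.15, scanpy 1.11.5, leidenalg 0.10.2). A cluster took the type with the highest mean marker z-score (at least 0.5) among types with at least 3 markers in at least 25% of its cells. Clusters 14 and 16 stayed unnamed, cluster 14 by a cartilage list added after seeing the data. Also after seeing the data, 5 cells with at least 1000 immunoglobulin molecules were left out. No doublets were removed, and Scrublet called 10.

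Molecules were summed by type and pool. Intervals are exact Poisson for CPM and exact Clopper-Pearson for shares and for the split of molecules between pools (scipy 1.17.1). Log2 ratios used a pseudocount of 0.5 molecule, at least 30 cells per pool and at least 50 molecules. Upper limits for 0 cells use 3 counts. Functions were tested on simulated data. The text names the members, the highest and lowest gene of each list, Saa3 and the 3 genes most like each member, which for Myd88 are not reported here. The values of Cxcl13, Nlrp3, Il1b, S100a8, S100a9, Marco, Ager and Olr1 are given by a choice made after they were seen. Positions are from GENCODE release 21 on GRCm38.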

Additional observations from a re-analysis of the deposited data

Results flagged for a closer look

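Tlr2 and Cd14 differed between the pools in opposite directions in 2 macrophage-like clusters, and this is why they are listed. On the log2 scale, pool labelled Saa3-/- over pool labelled wild-type, Tlr2 was 0.43 in cluster 0 and -1.06 in cluster 8. Cd14 was 0.33 in cluster 0 and -0.96 in cluster 8. The 95% counting intervals were 0.20 to 0.65 and -1.44 to -0.70 for Tlr2, and 0.20 to 0.46 and -1.16 to -0.76 for Cd14. With 1 pool per genotype the difference between the clusters was not tested.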

How the results depend on the processing

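No paired analysis was possible because each genotype is 1 pool of cells, and the replicate numbers in the labels belong to the cultured macrophages, which were not analysed here. The log2 ratio of Fpr1 in macrophage-like cells ranged from -2.72 to -1.97 and that of Fpr2 from -2.10 to -1.50 over the alternatives that gave them a value. These were other cell filters, clusterings, scalings and pseudocounts, and, added after seeing the data, the removal of cells rich in Saa3 or of cluster 8. A further check without the 5 highest cells of each pool is left out of the ranges, since those cells held 7 of the 8 Fpr1 molecules under the Saa3-/- label and a lower ratio followed from its construction. The members past the fold numbered 1 in place of 2 where at least 100 molecules were required, since Fpr1 has fewer, and to 0 at 2000 molecules per cell, where neither gene reached 50 molecules. The median member ratio ranged from -0.22 to -0.03, and members highest in a myeloid type stayed at 8. Without cluster 8, Tlr2 and Cd14 in macrophage-like cells were 0.28 and 0.26. P2rx7 was 0.61 at 2000 molecules per cell.

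Shares of cells depended on depth. Percentages of macrophage-like cells in the pools labelled wild-type and Saa3-/- were 0.00 and 0.00 for Tlr4 with Ly96 and Myd88 at 2000 molecules, and 0.521 and 0.00 at 4000. For Tlr2 with Myd88 they were 3.30 and 6.33 at 2000 and 13.02 and 11.45 at 4000. For Fpr1 or Fpr2 they were 10.8 and 3.80 at 2000 and 17.2 and 5.34 at 4000. The number of cells per type limits every level of monocyte- and neutrophil-like cells.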

Other observations

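Some clusters outside the ranked types also held members. Cluster 16, which stayed unnamed (led by Cd300e, Treml4 and Adgre4, genes of patrolling monocytes, 9 and 22 cells in the pools labelled wild-type and Saa3-/-), held 4 and 6 molecules of Fpr1, 8 and 12 of Fpr2, 2 and 13 of Scarb1 and 12 and 42 of Tlr2. Cluster 14, also unnamed (led by Ibsp, Col2a1 and Acan, genes of cartilage and bone, 16 and 17 cells), held 23 and 6 molecules of Tlr4, against 25 and 17 of Cd14. Mast-cell-like cells (5 and 4 cells) held 11 and 3 molecules of P2rx7, found in 4 of 5 and 2 of 4 cells, and 57 and 0 molecules of Cd14. Endothelial-like cells numbered 6 and 4, with 0 and 3 molecules of Tlr4 and 0 and 1 of Scarb1.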
